A study of Homo sapiens with 30 samples.

Results

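The clustered protocadherins of chromosome 5 were followed through 5 ChIP-seq peak lists from HEK293T cells, a human embryonic kidney line. Members were the protein-coding genes on chromosome 5 whose GENCODE symbol starts with PCDHA, PCDHB or PCDHG, which gave 53 of 20098 protein-coding genes on chromosomes 1 to 22 and X. They comprised 15 genes of the α subcluster, 16 of the β subcluster and 22 of the γ subcluster. All were on the plus strand, and together they spanned 726.824 kb at chr5:140165721-140892544 (hg19). TAF7, which lies between the β and γ subclusters, was left out as a gene. Peaks at its place were not removed and count with the span and the gap between β and γ.

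Clustered protocadherins are cell adhesion proteins best known from neurons, where each cell switches on its own combination of them and uses it to tell its own processes from those of other cells. Each gene has its own promoter and a large variable exon that encodes the extracellular cadherin repeats, the transmembrane segment and a short cytoplasmic tail. In the α and γ subclusters this exon is spliced to constant exons shared by the whole subcluster, whereas the β genes have no constant exons. H3K9me3 and H3K27me3 are histone marks of silent chromatin, written by different enzymes, and promoter choice in this locus is known to involve silencing of the unused promoters. The C-type genes (PCDHAC1, PCDHAC2, PCDHGC3, PCDHGC4 and PCDHGC5) are the members whose expression is known to be less random than that of the other α and γ genes.

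Cells had been transfected for 48 h with antisense oligonucleotides (ASOs) against the lncRNA LINC00641, SETD5-AS1 or LINC00662, or with a negative control ASO (NC). H3K27me3 was profiled in NC, ΔLINC00641 and ΔSETD5-AS1 cells and H3K9me3 in NC and ΔLINC00662 cells, with input chromatin for each, which made 30 samples in 10 groups. The authors merged the 3 replicates of a group before calling peaks, so each group had 1 list and no error between replicates could be given. No test was possible for any difference between lists, and the p-value of a peak compares merged ChIP reads with merged input reads at that place. Both H3K27me3 knockdowns were set against the same NC list. The lncRNA levels after transfection were not analysed here.

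The promoters of 6 members are shown first because the H3K9me3 peaks described below began close to the start sites, and because these are the first and last genes of each subcluster. Each line gives 120 bases that end just before the start site of the transcript chosen for the gene (GRCh37, plus strand). Capitals mark GGCGCT or GTCGCT.
PCDHA1 (chr5:140165605-140165724): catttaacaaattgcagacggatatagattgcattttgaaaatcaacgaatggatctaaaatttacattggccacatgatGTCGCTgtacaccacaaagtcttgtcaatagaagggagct
PCDHAC2 (chr5:140345941-140346060): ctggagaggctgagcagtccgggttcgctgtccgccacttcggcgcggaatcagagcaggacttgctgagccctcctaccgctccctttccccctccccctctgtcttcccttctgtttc
PCDHB1 (chr5:140430839-140430958): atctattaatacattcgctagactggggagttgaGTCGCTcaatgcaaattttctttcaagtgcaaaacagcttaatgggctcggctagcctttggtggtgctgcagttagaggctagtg
PCDHB15 (chr5:140624843-140624962): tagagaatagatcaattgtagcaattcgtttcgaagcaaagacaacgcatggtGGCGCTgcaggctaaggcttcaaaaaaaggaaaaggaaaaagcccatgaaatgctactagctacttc
PCDHGA1 (chr5:140709961-140710080): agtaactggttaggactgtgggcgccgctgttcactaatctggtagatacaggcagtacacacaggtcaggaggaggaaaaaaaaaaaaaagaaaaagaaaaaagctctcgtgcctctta
PCDHGC5 (chr5:140868528-140868647): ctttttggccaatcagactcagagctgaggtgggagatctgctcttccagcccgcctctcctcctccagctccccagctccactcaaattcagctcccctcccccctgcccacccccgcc
The letters GGCGCT, searched on both strands of the 250 bases before the start site, were present in 13 of 16 β members, 8 of 22 γ members and 0 of 15 α members, against 23.7% of all protein-coding promoters. GTCGCT was present in 13 of 15 α members, 2 of 16 β members and 6 of 22 γ members, against 7.94% of all protein-coding promoters. These motifs were chosen after the members' promoters had been compared, and a match is a description of the letters in this window. PCDHAC2, PCDHGC4 and PCDHGC5 were among the 13 members with neither motif.

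H3K9me3 was the mark that covered the protocadherins. In NC cells 182 H3K9me3 peaks overlapped the span and covered 174.396 kb of it, or 24.0%. The same list covered 2.404% of chromosome 5 and 1.90% of chromosomes 1 to 22 and X. When these chromosomes were cut into 3913 tiles of the length of the span, 7 tiles were covered at least as much as the span, and the median tile was covered by 1.37%. H3K27me3 in NC cells had 40 peaks in the span and covered 2.99% of it, against 4.97% of chromosome 5 and 2.73% of the chromosomes together. Of the tiles, 664 were covered by H3K27me3 at least as much as the span, and the median tile was covered by 0.139%. The span held 55.0 H3K27me3 peaks per Mb, against 36.1 on the chromosomes together and 64.0 on chromosome 5. Beside the H3K9me3 peaks of the span, the H3K27me3 peaks were weak as well as few. Their median was 16 fragments at the summit, and 4 of 40 reached a −log10 q of 5. For H3K9me3 the median was 30 fragments, and 117 of 182 peaks reached that value.

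The 3 subclusters were not covered alike. In NC cells H3K9me3 covered 14.1% of the α subcluster (chr5:140165721-140391932), 26.4% of the β subcluster (chr5:140430959-140628933) and 32.1% of the γ subcluster (chr5:140710081-140892544). The gap between α and β held 1 peak and was covered by 1.58%. The gap between β and γ, which holds TAF7 and SLC25A2, a mitochondrial ornithine transporter gene, was covered by 38.3%, and it contained the 3 strongest H3K9me3 peaks of the span in NC cells when ranked by −log10 q, the order used for peak strength throughout. By fold enrichment, 2 of the first 3 lay there. H3K27me3 in NC cells followed another order, with 9.05% of the gap between α and β, 5.28% of β, 1.95% of α, 1.84% of γ and no base of the gap between β and γ. Outside the span the H3K9me3 coverage was 5.49% of the 500 kb before it and 0.273% of the 500 kb after it.

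**Figure D1:**
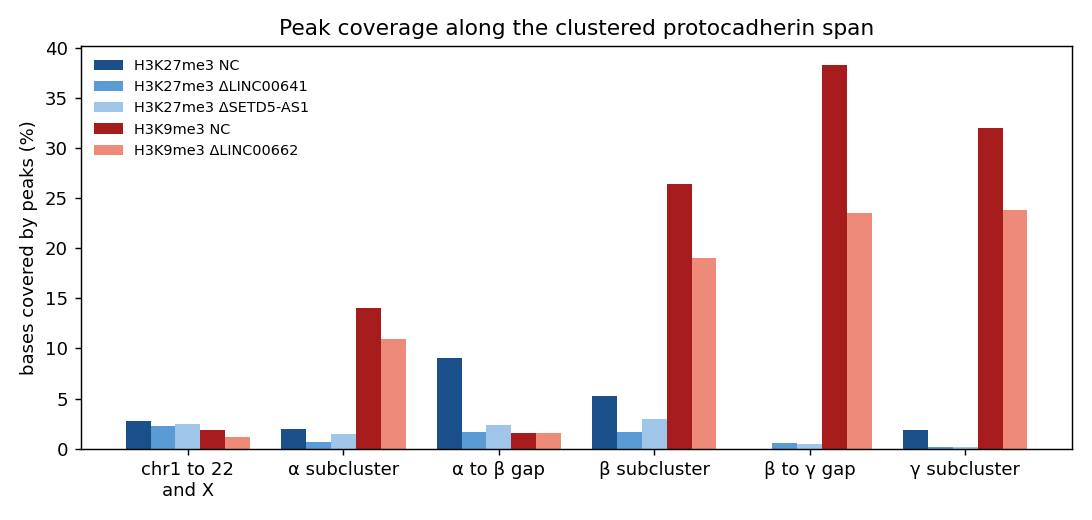
Share of bases (%, vertical axis) covered by peaks in each of the 5 lists (colours) for chromosomes 1 to 22 and X together and for the 3 subclusters and 2 gaps of the protocadherin span (horizontal axis). The H3K9me3 bars reach 14.1%, 26.4% and 32.1% in the α, β and γ subclusters in NC cells, while no H3K27me3 bar passes 9.05%.

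Within the subclusters the H3K9me3 coverage was denser on the variable exons than elsewhere. These exons made up 21.0% of the length of the subclusters, and 72.6% of their bases were covered in NC cells. The remaining sequence was covered by 10.4%, a ratio of 6.95. Of 145 H3K9me3 summits in the subclusters, 85 lay inside a variable exon, with 25 of 38 in α, 28 of 58 in β and 32 of 49 in γ. The ratio of exon to remaining sequence was 10.1 in the α, 5.03 in the β and 6.80 in the γ subcluster. None of the 3 constant exons of the α subcluster and none of the 3 of the γ subcluster was touched by a peak of any of the 5 lists. For H3K27me3 in NC cells the variable exons were covered by 3.38% and the remaining sequence by 2.91%.

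Counted by gene, 52 of 53 variable exons carried an H3K9me3 peak in NC cells, 44 were at least 50% covered and 5 were covered completely. Over all protein-coding genes, 2.59% of first coding exons carried an H3K9me3 peak in the same list. Variable exons are long (median 2397 bp), so longer exons are the closer background. Among 233 first coding exons of at least 2000 bp in other genes, 17.6% carried an H3K9me3 peak. The window of 1 kb on either side of the start site held an H3K9me3 peak in 49 of 53 members, against 5.44% of all protein-coding genes. All of these windows reach into the variable exon, whereas the 1 kb before the start site was covered by 10.5%.

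H3K27me3 reached few members, but its shares were not below those over all protein-coding genes. In NC cells 5 of 53 variable exons (9.43%) carried an H3K27me3 peak, against 4.65% of all first coding exons. Among the long first coding exons of other genes the share was 11.6%. A promoter peak was present in 6 of 53 members (11.3%), against 8.13% of all protein-coding genes. The α subcluster had no variable exon with an H3K27me3 peak in NC cells. Absence of a peak means only that no interval passed the threshold of the peak caller.

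**Figure D2:**
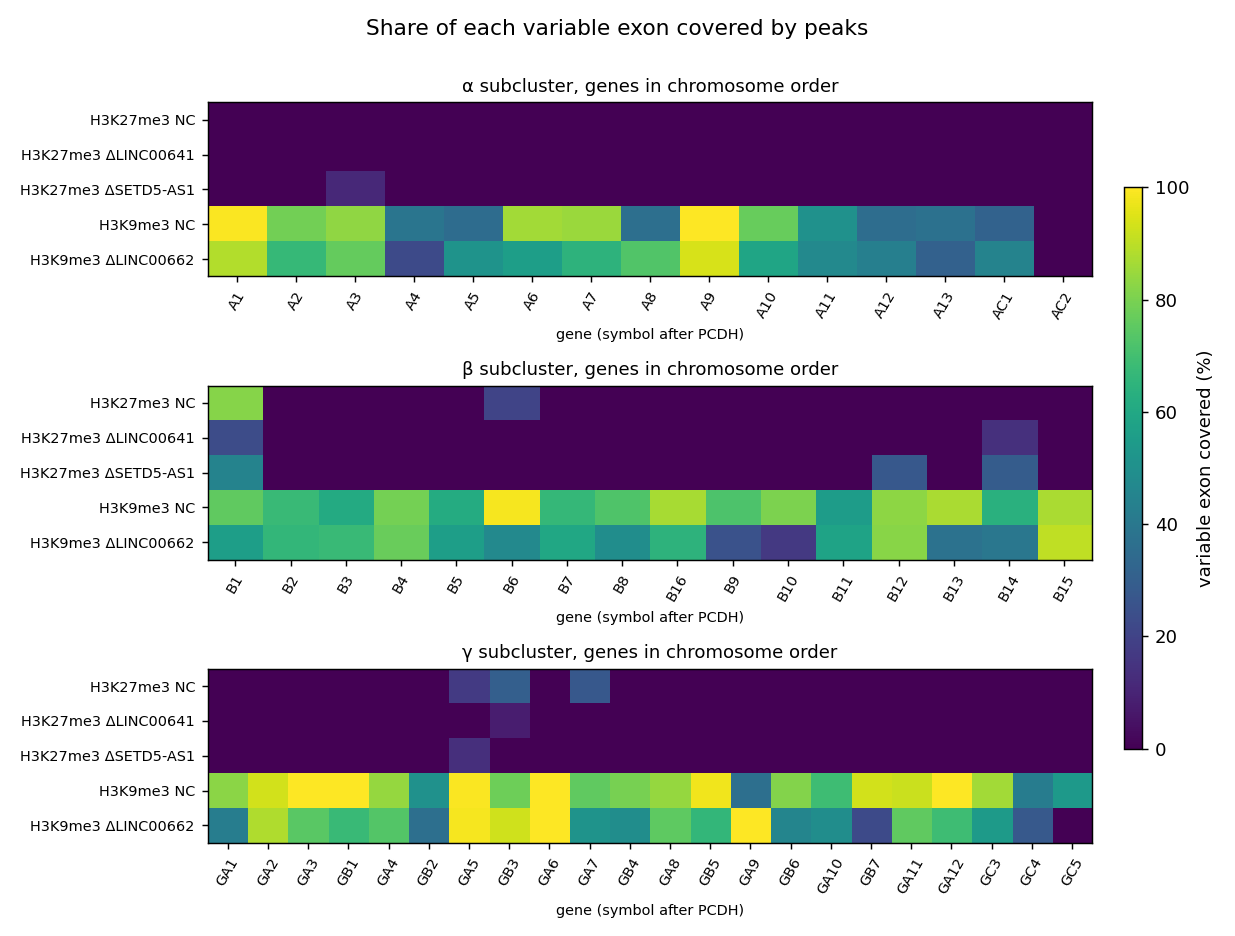
Share of the variable exon covered by peaks (colour, %) for each of the 53 members (columns, in chromosome order, named by the symbol after PCDH) in the 5 lists (rows), with 1 panel per subcluster. Nearly every member is covered in both H3K9me3 rows, PCDHAC2 is at 0 in every row, and PCDHB1 is the only member coloured in all 5 rows.

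The exception for H3K9me3 was PCDHAC2, the last α gene (variable exon at chr5:140346352-140348916). No peak of any of the 5 lists touched its variable exon or the 1 kb on either side of its start site. It lay in the longest stretch of the span without an H3K9me3 peak in NC cells, 98.441 kb at chr5:140331901-140430341, which ran through the α constant exons to the start of the β subcluster. In ΔLINC00662 cells the corresponding stretch was 113.440 kb long and again held no other variable exon. The second longest stretch in NC cells measured 23.638 kb.

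The other C-type genes carried H3K9me3 at variable extents. PCDHAC1 was covered by 31.6% in NC and 44.9% in ΔLINC00662 cells. PCDHGC3 was covered by 86.1% and 54.5%, and its strongest peak had the highest number of summit fragments in the span in NC cells, at 74. Local input at this peak was also the highest of these peaks, at 4.96 times the lowest level of the list. Its fold enrichment was 3.36, against a median of 3.47 in the span. PCDHGC4 was covered by 41.9% and 28.1%. PCDHGC5, the last γ gene, was covered by 53.7% in NC cells and carried no peak in ΔLINC00662 cells. The median of the 5 C-type exons in NC cells was 41.9% and their range ran from 0 to 86.1%, while the 13 other α exons ranged from 35.4% to 100% around a median of 76.7%, and the 19 other γ exons from 36.4% to 100% around 84.3%. The ranges of these groups overlapped. C-type exons also held fewer CpG dinucleotides, with a median of 98 per exon, than the other α exons (176) and the other γ exons (126), and the part of CpG content in their coverage was not tested.

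Among the α genes, PCDHA9 was covered completely in NC cells, PCDHA1, the first gene of the span, by 99.5% and PCDHA6 by 86.1%. In contrast, PCDHA4, PCDHA5, PCDHA8, PCDHA12 and PCDHA13 had between 35.4% and 39.0% of the exon covered. Partial coverage did not mean a weak peak. The strongest peak on PCDHA5 had a fold enrichment over input of 6.42, the highest of all variable exons in NC cells, whereas that on the fully covered PCDHA9 had 2.24, the lowest. By summit fragments the order was reversed, with 33 on PCDHA5 and 48 on PCDHA9. Local input was 1 and 4.85 times the lowest level of the list.

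The β exons were the most even, and all 16 carried H3K9me3 over 55.1% to 98.7% of their length in NC cells. PCDHB6 (98.7%), PCDHB15 (87.3%) and PCDHB13 (87.2%) were the most covered. PCDHB1, the first β gene and the one that stands apart in sequence from the other β genes, was covered by 75.6%. In the γ subcluster all 22 exons carried H3K9me3, and PCDHGA3, PCDHGB1, PCDHGA6 and PCDHGA12 were covered from end to end. The widest peak of the span, 3156 bp at chr5:140753491-140756646, took in the whole PCDHGA6 exon. PCDHGA1, the first γ gene, was covered by 82.5%. The lowest γ values in NC cells belonged to PCDHGA9 (36.4%), PCDHGC4 (41.9%) and PCDHGB2 (50.4%).

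Ranked by −log10 q, the strongest H3K9me3 peak with its summit inside a variable exon in NC cells was on PCDHGA12 (peak at chr5:140810204-140813253, −log10 q 16.3). It had 44 summit fragments and a fold enrichment of 5.33, both exceeded by peaks on other exons. The 101 bases around its summit (chr5:140811710-140811810, GRCh37, plus strand) are shown because they lie in coding sequence 1686 bp after the start site. Capitals mark CpG dinucleotides.
PCDHGA12 summit: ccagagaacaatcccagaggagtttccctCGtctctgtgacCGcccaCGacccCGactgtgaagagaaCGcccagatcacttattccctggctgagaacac
This window held 5 CpG dinucleotides and was 56.4% G or C.

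Aligned at the start site, the H3K9me3 coverage had sharp edges and an internal structure. Over all 53 members the share of covered bases was 9.43% in the 50 bp bin that began 500 bp before the start site, 52.2% in the bin at the start site and 84.1% at 300 to 350 bp after it. It was 11.3% at 4 kb after the start site. Along the α exons coverage was 66.7% at 250 to 300 bp, 40.0% at 650 to 700 bp, 93.3% at 1250 to 1300 bp, 21.7% at 1700 to 1750 bp and 66.7% at 2150 to 2200 bp. The β exons had 93.8% at 300 to 350 bp, 56.3% at 1050 to 1100 bp, 87.5% at 1550 to 1600 bp, 43.8% at 2000 to 2050 bp and 87.5% at 2250 to 2300 bp. In the γ exons coverage stayed at or above 90.9% between the first pair of maxima and had a single dip, to 62.9% at 1700 to 1750 bp. In each list 3 maxima and 2 minima were searched for, so their number is no result, but their places can be compared. In ΔLINC00662 cells the α minima were 40.0% at 700 to 750 bp and 33.3% at 1900 to 1950 bp, and the β minima 30.1% at 1150 to 1200 bp and 37.5% at 1950 to 2000 bp. The first β maximum lay at 800 to 850 bp in ΔLINC00662 cells, further into the exon than in NC cells. The first γ minimum was 48.4% at 1300 to 1350 bp in ΔLINC00662 cells, against 90.9% at 650 to 700 bp in NC cells.

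Base composition did not follow these positions in a regular way. In NC cells the first minimum lay at 43.3% GC in the α and 38.0% in the β exons, and the second at 64.9% and 67.9%. The maximum between them lay at 58.3% in the α and 62.0% in the β exons. The first and last α maxima lay at 69.9% and 67.6%, above both α minima, while the first γ maximum lay at 40.5%, below the γ minima at 47.6% and 56.5%. At the second β minimum, 55.0% of 100-base windows occurred more than once in the span, against 0.667% at the second α minimum. The part of composition and repeated sequence in this pattern was not tested.

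**Figure D3:**
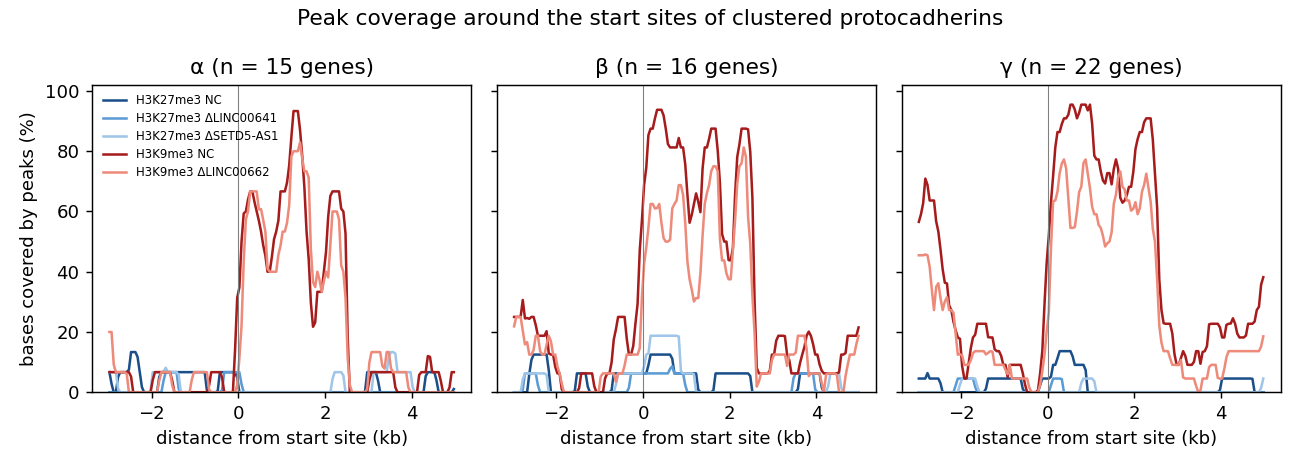
Share of bases covered by peaks (%, vertical axis) in 50 bp bins by distance from the annotated start site (kb, horizontal axis), averaged over the members of each subcluster (panels), for the 5 lists (lines). H3K9me3 coverage steps up at the start site, reaches 93.3%, 93.8% and 95.5% in the α, β and γ panels in NC cells, and drops again near the end of the variable exon, while the H3K27me3 lines stay at or below 18.8%.

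The variable exons resemble each other, which limits how exactly reads could be placed. The longest identical stretch between 2 members measured 592 bp and was shared by PCDHA7 and PCDHA9, followed by 453 bp in PCDHB8 and PCDHB13 and 450 bp in PCDHGB4 and PCDHGB5. A stretch of at least 200 bp was shared with another member by 20 of the 53 exons. Peak values of these genes are uncertain, since no filter on mapping quality is stated. In 15 exons no 100-base window occurred a second time in the span, and among these 14 carried H3K9me3 in NC cells, with a median coverage of 75.6%. The other 38 exons all carried H3K9me3, with a median of 82.0%. The exception among the former was PCDHAC2.

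Across the 53 exons, H3K9me3 coverage in NC cells had a Spearman rho of 0.019 with GC content and 0.14 with the number of CpG dinucleotides. Within the γ subcluster (n = 22) the rho with CpG number was 0.61, within α (n = 15) 0.48 and within β (n = 16) 0.057. These exons share 1 list, 1 depth and related sequences, so the coefficients are descriptions.

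PCDHB1 was the member with the most H3K27me3. In NC cells its variable exon was 81.8% covered, and the strongest of the peaks on it, 1962 bp long at chr5:140430254-140432215, took in the start site as well. The 28 fragments at its summit gave a fold enrichment of 3.64 over input. H3K9me3 covered 75.6% of the same exon, so both marks were called on it in lists from separate immunoprecipitations.

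The other H3K27me3 exons in NC cells were PCDHGB3 (30.2% covered), PCDHGA7 (27.7%), PCDHB6 (20.5%) and PCDHGA5 (17.0%). Their strongest peaks had 20, 16, 14 and 21 summit fragments. All 4 were also among the exons with H3K9me3. PCDHAC1 had 2 H3K27me3 peaks near its promoter and none on its exon. In the whole span, 8116 bp were covered by both marks in NC cells, which was 37.3% of the H3K27me3 bases and 4.65% of the H3K9me3 bases. The shared part was 4.73% of the H3K27me3 bases in α, 46.5% in β and 72.5% in γ. H3K9me3 alone covered 14.1%, 26.4% and 32.1% of these subclusters, and the H3K27me3 bases came from 11, 19 and 5 peaks. The shared part over the chromosomes together was not calculated, and the part of H3K9me3 density in these shares was not tested.

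After knockdown of LINC00662, H3K9me3 covered less of the span but remained on nearly every variable exon. The ΔLINC00662 list had 164 peaks in the span, which covered 125.780 kb or 17.3%, against 24.0% in NC cells. The lowest local input level recovered from the peaks was 3.50 fragments in the ΔLINC00662 list and 4.29 in the NC list. The part of this difference between the lists in the lower coverage was not tested. The ratio of covered bases to NC was 0.721 in the span, 0.594 on the chromosomes together and 0.606 on chromosome 5. By region the ratio was 0.780 in α, 0.721 in β, 0.745 in γ and 0.613 in the gap between β and γ. The variable exons were covered by 57.9% and the remaining sequence by 6.73%. The order of the subclusters was the same as in NC cells, with 10.98% of α, 19.05% of β and 23.87% of γ covered. Of the 3913 tiles, 9 were covered at least as much as the span.

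By gene, 51 of 53 variable exons carried an H3K9me3 peak in ΔLINC00662 cells, against 2.19% of all first coding exons and 13.7% of the long first coding exons of other genes. PCDHGC5 was the 1 exon of 52 that had a peak in NC and none in the knockdown. Over all genes, 46.1% of first coding exons with a peak in NC had none in ΔLINC00662, and among the long exons of other genes 43.9%. A smaller share of the exon was covered in ΔLINC00662 than in NC cells in 42 of 52 members, a larger share in 9 and an equal share in 1, PCDHGA6. The background is 69.7% of first coding exons with a smaller share. The median difference was −13.9 percentage points over the 52 exons, −6.73 in α, −13.2 in β and −22.1 in γ. Without replicates these differences have no error.

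Single genes ranged widely around this median. PCDHGB7 was covered by 93.2% in NC and 22.5% in ΔLINC00662 cells. PCDHB10 was covered by 80.3% and 16.6%, and PCDHB6 by 98.7% and 47.2%. In the other direction, PCDHGA9 was covered by 36.4% in NC and completely in ΔLINC00662 cells, and PCDHA8 by 36.7% and 72.8%. PCDHGA5 (99.5% and 98.7%) and PCDHB12 (82.9% and 82.4%) hardly differed. PCDHB15, the last β gene, was covered by 87.3% and 90.4%, and its peak was the third strongest of the span in ΔLINC00662 cells (fold enrichment 6.57, 39 summit fragments).

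**Figure D4:**
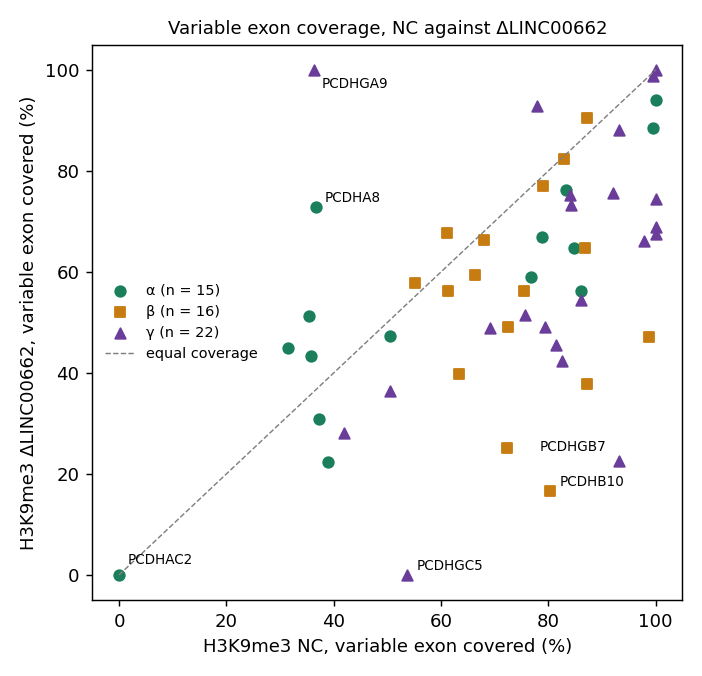
Share of the variable exon covered by H3K9me3 peaks in NC (%, horizontal axis) and ΔLINC00662 cells (%, vertical axis) for the 53 members, with colour and shape by subcluster and a dashed line at equal coverage. Of the 52 members with a peak in NC, 42 lie below the line, with PCDHGC5 at 0 in the knockdown and PCDHGA9 and PCDHA8 well above the line.

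At promoters, 47 of 53 members had an H3K9me3 peak in ΔLINC00662 cells, against 4.49% of all protein-coding genes. Of 49 members with a promoter peak in NC cells, 5 had none in the knockdown (PCDHGB7, PCDHB10, PCDHA10, PCDHGC5 and PCDHA11). A promoter peak was present in the knockdown and not in NC at PCDHA8, PCDHA5 and PCDHB11. The shares of all protein-coding promoters that differed in these ways were not calculated, so these genes cannot be set against a background.

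Peak by peak, 137 of 182 NC peaks in the span overlapped a ΔLINC00662 peak, or 75.3% (95% Wilson interval 68.5% to 81.0%, counting error only). Over the whole NC list the share was 37.9%. The peaks of the span were stronger than the list, with a median −log10 q of 6.39 against 4.30, and wider, with a median of 699.5 bp against 478 bp. The knockdown list was also denser in the span, with 17.3% of bases covered against 1.13% of the chromosomes together. The part of strength, width and density in the higher share was not tested. Where the −log10 q was 5 or more, 85.5% of 117 in the span and 55.3% of 30672 in the list overlapped a knockdown peak. Among weaker peaks the shares were 56.9% of 65 and 27.9% of 53498. The 45 span peaks without a counterpart had a median of 22 summit fragments and 48.5% GC, against 33 fragments and 51.7% GC for those with one. In the knockdown list, 20 of 164 span peaks had no counterpart in NC, and the same share over that whole list was not calculated.

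At 89 pairs of peaks in the span that matched 1 to 1, the median log2 ratio of fold enrichment of ΔLINC00662 over NC was −0.029, with 46 pairs lower and 43 higher. The median over all 28135 pairs of the lists was 0.026. Values of pairs in the span ran from −1.16 to 1.31. The strongest span peak of the ΔLINC00662 list, at chr5:140279399-140280361 between the variable exons of PCDHA13 and PCDHAC1 (fold enrichment 8.21, 40 summit fragments), had no counterpart in NC. The second strongest NC peak by −log10 q (22.2), at chr5:140700687-140701222 in the gap between β and γ (fold enrichment 5.33, 60 summit fragments), had none in ΔLINC00662. That gap holds TAF7, which the paper uses as its example of lower H3K9me3 after LINC00662 knockdown. The distance of this peak from TAF7 was not measured here.

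H3K27me3 in the span was sparser after both knockdowns. The number of peaks was 40 in control cells, 14 in ΔLINC00641 and 20 in ΔSETD5-AS1 cells, and the share of the span covered was 2.99%, 0.822% and 1.47%. The ratio of covered bases to NC was 0.275 in ΔLINC00641 and 0.491 in ΔSETD5-AS1, against 0.825 and 0.899 on the chromosomes together and 0.720 and 0.831 on chromosome 5. In the γ subcluster 5 peaks in NC compared with 1 in each knockdown, in the β subcluster 19 with 7 and 10, and in the α subcluster 11 with 4 and 7. These counts are small, and most of the peaks were near the threshold of the caller.

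Few of the NC peaks had a counterpart. In ΔLINC00641, 6 of 40 were overlapped, or 15.0% (95% Wilson interval 7.06% to 29.1%), and in ΔSETD5-AS1 7 of 40, or 17.5% (8.75% to 31.9%). The shares over the whole NC list were 53.2% and 56.3%. For list peaks with a −log10 q below 5, the group to which 36 of the 40 belonged, the shares were 44.2% and 47.8%, against 13.9% and 16.7% in the span. The knockdown lists covered 0.822% and 1.47% of the span, against 2.25% and 2.45% of the chromosomes together. The NC peaks of the span were narrower than the list, with a median of 436 bp against 518 bp. The part of density and width in the lower shares was not tested. Of the knockdown peaks in the span, 8 of 14 in ΔLINC00641 and 13 of 20 in ΔSETD5-AS1 had no counterpart in NC. The same share over the whole knockdown lists was not calculated, so these counts cannot be called particular to the span. The median log2 ratio of fold enrichment was 0.089 at 6 pairs in ΔLINC00641 and 0.051 at 7 pairs in ΔSETD5-AS1, against 0.015 and −0.070 over all pairs.

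Variable exons with an H3K27me3 peak numbered 5 in the control list, 3 after LINC00641 and 5 after SETD5-AS1 knockdown, against 5.09% and 4.89% of all first coding exons in the 2 knockdown lists. Promoters with a peak numbered 6, 4 and 4, against 8.97% and 8.14% of all protein-coding genes in the knockdown lists. In ΔLINC00641, PCDHGA7, PCDHB6 and PCDHGA5 carried no exon peak, so 3 of 5 exons with a peak in NC had none, against 21.3% of the 935 first coding exons with a peak in NC over all genes. PCDHB14 carried a peak in this knockdown and none in NC. In ΔSETD5-AS1, PCDHGB3, PCDHGA7 and PCDHB6 carried no exon peak, again 3 of 5, against 23.5% of the same 935. PCDHB14, PCDHB12 and PCDHA3 carried a peak in ΔSETD5-AS1 and none in NC. With 5 exons, each gene moves such a share by a large step.

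PCDHB1 carried H3K27me3 in all 3 lists. Its exon was 81.8% covered in the NC list, 23.3% covered in ΔLINC00641 and 44.9% covered in ΔSETD5-AS1 cells. The height of the peak did not follow its width. Fold enrichment at the strongest summit was 3.64, 3.83 and 4.58, with 28, 29 and 33 fragments. It was the strongest peak of the span in both knockdown lists. At PCDHAC1, a promoter peak of 425 bp in ΔLINC00641 (37 summit fragments) overlapped a peak of NC. ΔSETD5-AS1 had no peak within 1 kb of this start site. Its peak at chr5:140304183-140304526, further upstream, overlapped the other NC peak near this promoter.

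Set beside other gene families, the protocadherins had the most complete H3K9me3 coverage of the largest coding exon. In NC cells it was 98.1% of 53 members with a peak, 59.8% of 249 zinc finger (ZNF) genes on chromosome 19, 5.30% of 415 olfactory receptor genes and 3.57% of the 20045 protein-coding genes other than members. In ΔLINC00662 cells these shares were 96.2%, 27.3%, 5.54% and 2.54%. The zinc finger exons are shorter, with a median of 1537 bp against 2397 bp. These families were chosen with earlier results of the lists known.

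Fewer of the other protocadherins and of the flanking genes carried H3K9me3. Of 12 non-clustered protocadherins, which lie singly in the genome, 1 (PCDH17) had an H3K9me3 promoter peak in NC cells and 4 had an H3K27me3 promoter peak (PCDH1, PCDH10, PCDH11X and PCDH19). Measured on the first coding exon, as for the members, 2 of the 12 carried H3K9me3. The PCDH17 exon was covered by 86.5% in NC and 65.3% in ΔLINC00662 cells, within the range of the members, and the PCDH19 exon by 27.2% and 75.8%. The first coding exons of the other 10 held no H3K9me3 peak in either list. Over the whole gene the largest share covered by H3K9me3 in NC cells was 7.78%, at PCDH9. PCDH19 was covered by H3K27me3 over 38.7% of its length and by H3K9me3 over 2.64%. Of 28 protein-coding genes within 500 kb of the span, 1 had an H3K9me3 promoter peak (TMCO6) and none was covered by H3K9me3 over more than 2.88% of its length. Both non-clustered protocadherins among these neighbours were free of H3K9me3 peaks. PCDH1 was covered by H3K27me3 over 11.7% in NC cells, and PCDH12 carried no peak of any list.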

How the data were processed

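Per the labels and the study's methods, adapters were trimmed with cutadapt 3.3, reads were checked with FastQC 0.11.8 and aligned to hg19 with Bowtie2 2.4.2, duplicates were removed with GATK, the 3 replicates of a group were merged, and peaks were called against merged input with MACS2 2.2.7.1 on paired-end fragments. No filter on mapping quality is stated. The authors deposited 1 narrowPeak list per ChIP group with fold enrichment over input (a ratio) and −log10 p-values and −log10 q-values, with summit offsets. Depth per sample is not given in the lists. The lowest local input level, 3.50 to 4.43 fragments, and the fragments at each summit were recovered from fold enrichment and p-value for every peak of the span, after tests on simulated data.

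Genes came from GENCODE release 44 lifted to GRCh37, whose main chromosomes share hg19 coordinates. Exons split by gaps of up to 10 bp in the lift-over were joined. A promoter was 1000 bp on either side of the start site of the representative transcript, a variable exon the coding part of the first coding exon. Overlap needed 1 bp. With merged replicates no test was made. Named genes were the C-type genes, the first and last gene of each subcluster, the 3 most covered exons per subcluster, the 3 strongest peaks of each list, and up to 5 members that differed in having a peak. Other genes were named after their values were seen. Members and lists were chosen with earlier results of these data known. Python 3.11.15 with numpy 2.4.6, pandas 2.3.3 and scipy 1.17.1 was used. The sequence at the PCDHGA12 summit is printed, and 1 other summit sequence is not reported here.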

Additional observations from a re-analysis of the deposited data

How the results depend on the processing

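Of 78 alternative values for 26 results, 48 stayed within the limits set (1.5 times for counts and shares of bases, the Wilson interval for overlaps, the middle of the pairs' range for log2 ratios). Some of the 48 could not move. Leaving out peaks with local input of 5 times the lowest level removed none, since the highest in the span was 4.96 times. Taking equal numbers of the strongest peaks left the coverage of the shortest list of each mark as it was. Median log2 ratios near 0 did not keep their sign. With summit fragments over the lowest local input level, the median changed from −0.029 to 0.031 for ΔLINC00662 and from 0.051 to −0.010 for ΔSETD5-AS1. For ΔLINC00641 it stayed positive, at 0.096. Counts and coverage of weak peaks depended on the threshold. With a −log10 q of 5 or more, the span held 4 (NC), 2 (ΔLINC00641) and 3 (ΔSETD5-AS1) H3K27me3 peaks, covering 0.46%, 0.193% and 0.348%, and 117 (NC) and 89 (ΔLINC00662) H3K9me3 peaks, the latter covering 11.3%. Promoters with H3K27me3 then numbered 2, 2 and 1, exons 2, 1 and 1, and promoters with H3K9me3 30 in ΔLINC00662. Merging peaks within 1 kb left 100 (NC) and 105 (ΔLINC00662) H3K9me3 peaks, so the direction of this count changed while covered bases were still lower. Where 50% of the exon had to be covered, 1, 0 and 0 exons carried H3K27me3 and 33 carried H3K9me3 in ΔLINC00662. A promoter of 2 kb gave 7 members for ΔSETD5-AS1. The share of NC peaks with a counterpart became 42.9% (ΔLINC00641), 35% (ΔSETD5-AS1) and 87.8% (ΔLINC00662) with the lists exchanged, 5% (ΔSETD5-AS1) and 52.7% (ΔLINC00662) with at least 50% of the NC peak overlapped, and 56.4% (ΔLINC00662) where both peaks had a −log10 q of 5 or more. The median log2 ratio for ΔSETD5-AS1 was 0.333 at the 1 pair past that threshold. No paired analysis was possible because the lists hold merged replicates, and for the same reason no replicate could be left out. Precision is limited by summits of 11 to 74 fragments, and no peak says only that none was called.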

Other observations

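Other genes of the span that are no members carried the same marks. The 6 protocadherin pseudogenes (PCDHA14, PCDHB17P, PCDHB18P, PCDHB19P, PCDHGB8P and PCDHGB9P), which do not encode a full protein, all had H3K9me3 peaks in NC and in ΔLINC00662 cells. In NC cells H3K9me3 covered between 39.0% of PCDHGB9P and 98.1% of PCDHB19P, with a median of 85.4%, and in ΔLINC00662 cells the median was 67.1%. PCDHB19P was the pseudogene with an H3K27me3 peak in NC cells, over 22.5% of its length, and this value was 13.0% in ΔLINC00641 and 0 in ΔSETD5-AS1 cells. PCDHB18P carried no H3K27me3 peak in NC and ΔSETD5-AS1 cells and was covered by 28.7% in ΔLINC00641 cells. SLC25A2, which has a single exon and lies between the β and γ subclusters, was covered by H3K9me3 over 83.8% in NC and 25.2% in ΔLINC00662 cells. These values have no error between replicates.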
